A study of Homo sapiens with 4 samples.

Results

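Histone genes encode the proteins that package DNA into nucleosomes. Probes were taken as members where their single gene symbol began with H1-, H2AC, H2BC, H3C, H4C, H2AZ or H2AX, or with an older histone cluster name. This gave 78 probes of 70 genes, out of 18852 named genes on the array, and the rule itself uses no measured value. The 70 genes comprised 9 of linker histone H1, 18 of H2A, 18 of H2B, 11 of H3 and 14 of H4. By the RefSeq annotation of GRCh38.p14, 53 lay on chromosome 6 and 10 on chromosome 1.

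Core histones H2A, H2B, H3 and H4 form the protein spool around which DNA winds, and H1 binds the DNA that enters and leaves it. Most histone genes lie in clusters, are transcribed mainly while DNA is replicated, and give short mRNAs that end in a stem-loop in place of a poly(A) tail. Some of these genes can also give longer, polyadenylated transcripts. The H2A.Z variants come from single genes outside the clusters, have polyadenylated mRNAs, and are made throughout the cell cycle, while the variant gene H2AX can give both RNA forms. The primer of the labelling kit is not given in the sources used here, so which of these RNA forms the arrays read is unknown.

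The data came from 4 Illumina HumanHT-12 v3 arrays of H520 and LK2, both human lung squamous cell carcinoma lines. Each line received either scrambled control siRNAs or pooled siRNAs against SOX2, a transcription factor gene, and RNA was taken after 48 h. The 4 groups held 1 array each, namely H520 with control siRNA, H520 with SOX2 siRNA, LK2 with control siRNA and LK2 with SOX2 siRNA. Nothing in the labels says whether arrays came from separate experiments, so p-values measure only the spread between these arrays, which may be technical.

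Values were log2 values as processed by the authors, centred so that 0 stands near the middle of an unknown set of arrays. They allow differences between arrays and no reading of level, so neither the presence of a histone transcript nor that of a squamous marker can be judged. SOX2 read 0.28 and -0.38 on the H520 control and SOX2 siRNA arrays, and 0.14 and -1.97 on those of LK2. By its probes 63.2% and 63.8% of the control signal remained in H520, and 26.9% and 19.9% in LK2. Of 8 squamous markers 6 were measured, SOX2 included, and 2 of them were called between lines, or 33.3% against 27.4% of all genes. These were the desmosomal genes DSG3 and DSC3, higher in LK2. KRT5, KRT14 and PKP1 were not called, nor was SOX2, whose line coefficient was -0.87. Of 10 markers of immune and stromal cells, 0 were called between lines or with siRNA. In bulk RNA, fewer cells of a kind, such as cells in S phase, and less RNA per cell cannot be told apart.

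The largest differences among histone genes lay between the cell lines, and not between siRNA and control. H2BC21 and H2BC12, both H2B genes, were 2.54-fold and 2.31-fold higher in LK2, and H1-10, a linker histone variant, was 1.57-fold higher. H2AC20, an H2A gene, was 2.63-fold higher in H520, H2BC9 2.09-fold, H4C12 1.91-fold and H1-5 1.81-fold. With SOX2 siRNA no histone gene passed the test over both lines, nor did SOX2 itself.

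Promoter sequences of the 4 genes with the largest line differences are shown first, because the pair with the largest of all, H2BC21 and H2AC20, are neighbours transcribed in opposite directions. Each runs 5′ to 3′ on the gene's own strand, from 250 bases before to 50 bases after the RefSeq start (GRCh38.p14). Capitals mark the octamer ATTTGCAT, a motif known from H2B promoters, and the TATA box TATAAA, on either strand. They are H2BC21 (chr1:149886633-149886932, minus strand), H2AC20 (chr1:149886668-149886967, plus strand), H2BC12 (chr6:27146809-27147108, minus strand) and H2BC9 (chr6:26251364-26251663, plus strand).
H2BC21: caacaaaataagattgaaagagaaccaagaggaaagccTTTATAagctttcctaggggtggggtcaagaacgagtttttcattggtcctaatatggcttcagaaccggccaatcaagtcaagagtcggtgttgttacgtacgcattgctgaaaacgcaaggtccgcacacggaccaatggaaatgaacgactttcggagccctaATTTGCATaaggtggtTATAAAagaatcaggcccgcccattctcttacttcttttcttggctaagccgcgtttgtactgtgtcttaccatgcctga
H2AC20: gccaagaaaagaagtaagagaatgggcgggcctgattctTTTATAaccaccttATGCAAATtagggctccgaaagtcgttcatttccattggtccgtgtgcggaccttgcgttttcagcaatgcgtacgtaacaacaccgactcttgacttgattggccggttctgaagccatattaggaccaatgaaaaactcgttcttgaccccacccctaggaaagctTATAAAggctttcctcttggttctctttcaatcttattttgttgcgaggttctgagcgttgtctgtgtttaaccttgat
H2BC12: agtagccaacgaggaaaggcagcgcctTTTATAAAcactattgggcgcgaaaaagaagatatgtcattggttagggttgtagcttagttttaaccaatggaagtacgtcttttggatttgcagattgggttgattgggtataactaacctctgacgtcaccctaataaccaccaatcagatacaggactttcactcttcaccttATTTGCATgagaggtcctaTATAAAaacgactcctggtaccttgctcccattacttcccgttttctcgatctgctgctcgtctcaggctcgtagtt
H2BC9: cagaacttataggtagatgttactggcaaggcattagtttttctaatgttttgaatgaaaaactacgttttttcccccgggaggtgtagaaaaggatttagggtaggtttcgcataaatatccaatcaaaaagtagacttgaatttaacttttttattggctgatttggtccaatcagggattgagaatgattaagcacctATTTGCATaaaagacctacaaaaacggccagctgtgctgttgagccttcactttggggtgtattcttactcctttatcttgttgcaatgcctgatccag

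All 4 windows held 1 octamer, although H2BC21 and H2BC12 were higher in LK2 and H2AC20 and H2BC9 higher in H520. The octamer in the H2AC20 window is the same site as that of H2BC21, read on the other strand. Of the 70 genes 65 had a promoter window in the RefSeq table, and H2BC12 had 2, of which the first is shown. The octamer occurred in the windows of 14 of 18 H2B genes, 10 of 17 H2A genes, 1 of 9 H3 genes, 0 of 12 H4 genes and 0 of 9 H1 genes. Over all 27305 genes with a window it occurred in 2.19%, against 38.5% of the 65 histone genes. Windows of neighbours transcribed in opposite directions overlap, so 1 octamer can be counted for both genes. The H3 gene with an octamer, H3C4, has the same annotated start as H2AC7, so its octamer is also counted for H2AC7. CCAAT, a general promoter motif, was found in 55 of the 65 genes against 39.7% of all genes, and TATAAA in 43 against 14%. CATTGT, a core recognised by SOX proteins, was found in 6 of 65 (9.23%) against 13% of all genes. Motifs were searched on both strands, and matches of different motifs were counted separately even where they could share end bases, as the octamer can with CCAAT or CATTGT. A match describes the letters only.

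H2BC21 and H2AC20 start 236 bases apart on chromosome 1, and their windows share 265 bases. H2BC21 read -1.16 on the H520 control array, -0.94 on the H520 SOX2 siRNA array, 0.04 on the LK2 control array and 0.55 on the LK2 SOX2 siRNA array. H2AC20 read 0.94, 0.73, -0.26 and -0.85 on the same arrays in that order. Both LK2 arrays thus lay above both H520 arrays for H2BC21 and below them for H2AC20. The pair was picked by its line difference, which favours this. In the limma fit of line and siRNA over all genes, LK2 minus H520 was 1.35 ± 0.12 (SE) for H2BC21, with an adjusted p of 0.00054. For H2AC20 it was -1.39 ± 0.13 (limma adjusted p = 0.000641). The siRNA differences of the pair were opposite too, at 0.22 in H520 and 0.51 in LK2 for H2BC21 and -0.21 and -0.59 for H2AC20, and neither passed the test (limma adjusted p = 0.471 and 0.476).

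This opposition was set beside the other divergent pairs of histone genes, those on opposite strands whose starts lie within 500 bases. There were 12 pairs, with H2BC7 in more than 1 of them. Its partners H2AC7 and H3C4 have the same annotated start, 223 bases away, so that divergent promoter is counted more than 1 time. On the control arrays the line difference had the same sign in both genes of 7 pairs and opposite signs in 5. H2BC21 and H2AC20 were the 1 pair in which both genes differed by at least 1.5-fold. In H2AC25 and H2BC26, a pair outside the large clusters, H2AC25 was at -0.72 and H2BC26 at -0.13 by the fit, and 1 of the 2 genes was called. The remaining 10 pairs had coefficients between -0.14 and 0.14.

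**Figure D1:**
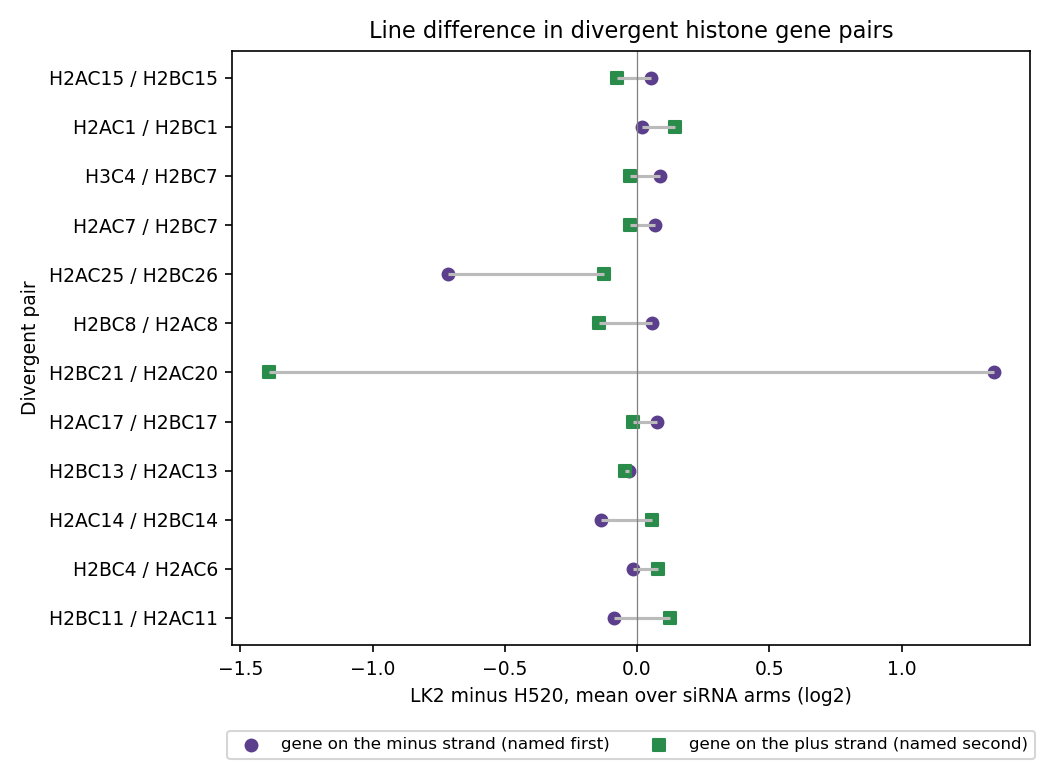
Line difference (LK2 minus H520, log2, mean over both siRNA arms) on the horizontal axis for the 12 divergent pairs of histone genes, circles for the minus-strand gene and squares for the plus-strand gene, joined by a line. H2BC21 at 1.35 and H2AC20 at -1.39 stand at opposite ends, while both genes of most pairs lie near 0.

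Between the lines 13 of the 70 genes were called by limma at an adjusted p under 0.05, or 18.6% of them, against 27.4% of all 18852 genes. Of these, 3 were higher in LK2 (4.29% against 14% of all genes) and 10 higher in H520 (14.3% against 13.4%). The median line coefficient was -0.04 over the histone genes and 0.01 over all genes. All 13 had the same sign on the control arrays as on the SOX2 siRNA arrays. The call itself favours this, since the coefficient is the mean of those differences and the gene's own part of the error comes from their gap. The larger part comes from a prior shared by all genes, with 5.19 degrees of freedom. H2BC9, with a gap of -0.02, thus still has a standard error of 0.0997. Standard errors near 0.10 mostly reflect that prior and not the precision of a single gene. The test has 1 residual degree of freedom per gene, namely how far the siRNA change in LK2 departs from that in H520, so a standard error holds no repeat of any array.

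**Figure D2:**
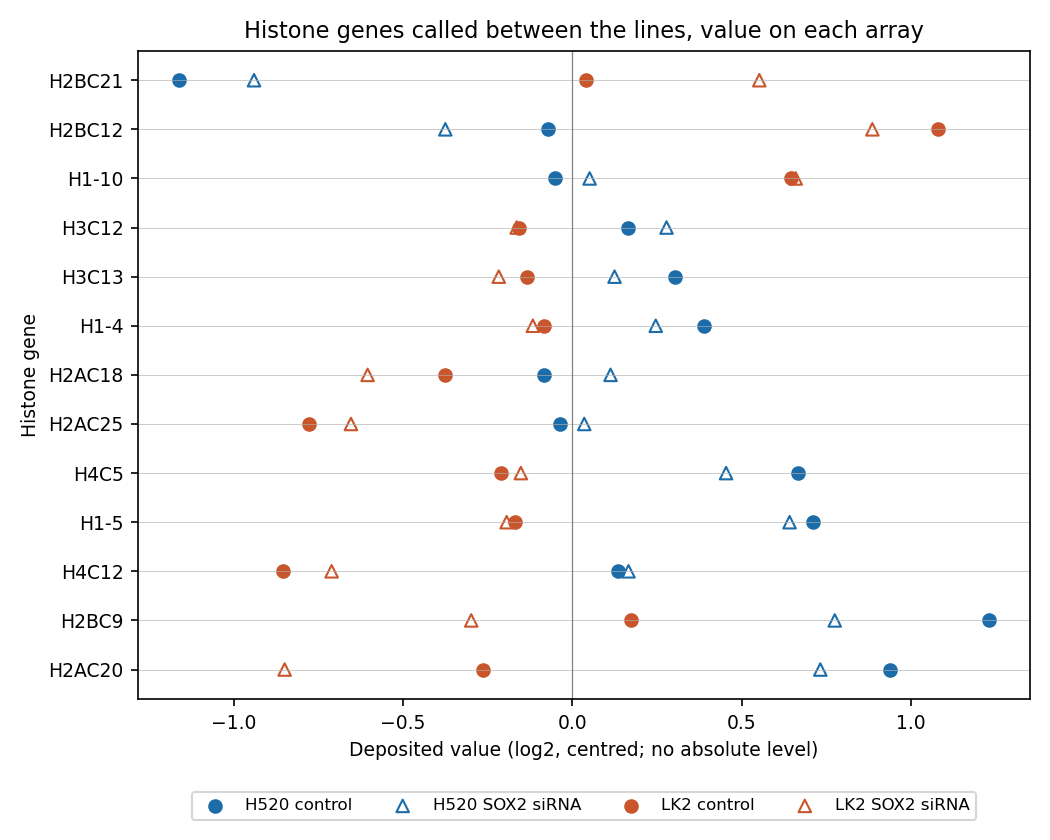
Deposited log2 value on each of the 4 arrays (horizontal axis) for the 13 histone genes called between the lines (vertical axis), circles for control and triangles for SOX2 siRNA, blue for H520 and orange for LK2. The upper 3 genes have both LK2 arrays above both H520 arrays, and the lower 10 have both below. The genes were picked by the line test on these same values, which favours such separation.

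H2BC12 is an H2B gene of the chromosome 6 cluster, and its 2 probes agreed in direction. It read -0.07 and -0.38 on the H520 control and siRNA arrays and 1.08 and 0.89 on those of LK2. Both LK2 arrays lay above both H520 arrays, which picking genes by the line test favours. LK2 minus H520 was 1.21 ± 0.10 (SE, limma adjusted p = 0.000516). By its probes taken singly the coefficient was 1.39 and 1.02. H1-10, also called H1X, read -0.05 and 0.05 in H520 and 0.65 and 0.66 in LK2, and its line coefficient was 0.65 ± 0.10 (limma adjusted p = 0.00483).

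Genes higher in H520 came from all 5 families. H2BC9 read 1.23 and 0.78 on the H520 control and siRNA arrays and 0.17 and -0.30 on those of LK2. It was thus lower on both LK2 arrays, at -1.07 ± 0.10 (SE, limma adjusted p = 0.000725). H4C12, an H4 gene, read 0.13 and 0.17 in H520 and -0.86 and -0.71 in LK2, a line coefficient of -0.93 ± 0.10 (limma adjusted p = 0.00132). Its siRNA arrays lay close to their controls in each line.

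H1-5, a linker histone gene of the chromosome 6 cluster, read 0.71 and 0.64 in H520 and -0.17 and -0.19 in LK2. Its line coefficient was -0.86 ± 0.10 (SE, limma adjusted p = 0.00166). A second linker histone gene, H1-4, was also lower in LK2, at -0.42 ± 0.10 (limma adjusted p = 0.0266). H4C5 stood at -0.74 ± 0.11 (limma adjusted p = 0.0046) and H2AC25 at -0.72 ± 0.10 (limma adjusted p = 0.00325). H4C5 and H4C12 were the 2 called members of the H4 family, whose other 12 members did not pass.

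The other 3 calls were H3C12, H2AC18 and H3C13. H3C12 was at -0.38 ± 0.10 (SE, limma adjusted p = 0.037). H2AC18 and H3C13 lie on chromosome 1. Their probes may read more than 1 gene copy, and the probes of each gene disagreed. H2AC18 was at -0.50 by the mean of its probes (limma adjusted p = 0.0334), and at -0.13 and -0.88 by each probe. H3C13 was at -0.39 (limma adjusted p = 0.0333), and at -0.84 and 0.05 by each probe. With siRNA left out of the fit its call was lost (limma adjusted p = 0.0503). Many histone genes have near-identical coding sequences, so any value may include signal from a related copy, which was not checked here.

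By family, the line coefficient had a median of -0.05 in H1, -0.09 in H2A, -0.02 in H2B, -0.13 in H3 and -0.09 in H4. Medians near 0 held wide ranges, as H2B ran from -1.06 (H2BC9) to 1.20 (H2BC21) and H2A from -1.20 to 0.31 on the control arrays. The 5 germline members, H1-6, H1-7, H2AC1 and H2BC1 of testis and H1-8 of the oocyte, ran from -0.19 to 0.27 on the control arrays, and 0 were called. The single-gene variants H2AZ1 (-0.28 ± 0.10 SE, limma adjusted p = 0.0902), H2AZ2 (0.09 ± 0.13, 0.696) and H2AX (-0.55 ± 0.17, 0.0633) were not called either.

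**Figure D3:**
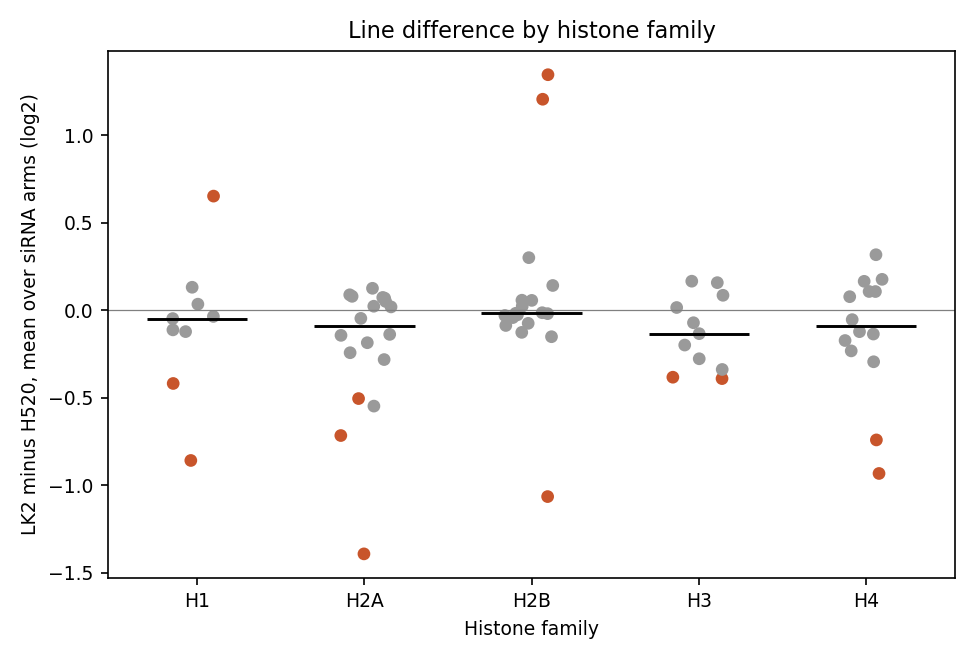
Line difference (LK2 minus H520, log2, mean over both siRNA arms) of each of the 70 histone genes by family, with the family median as a bar and the 13 called genes in orange. Medians lie between -0.13 and -0.02, and H2B holds called genes at both ends, H2BC21 and H2BC12 above 0 and H2BC9 below.

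On the control arrays alone, where there is no test, 9 histone genes differed between the lines by at least 1.5-fold, or 12.9% of them against 17.6% of all genes. LK2 was higher for 3 of them (background 9.06%) and lower for 6 (background 8.57%). Those 9 were at least 1.5-fold different in the same direction on the SOX2 siRNA arrays as well, and H2AC18 and H2AX passed 1.5-fold on those arrays only. On the SOX2 siRNA arrays the counts were 3 higher (background 9.65%) and 8 lower (background 8.98%), or 11 in all (background 18.6%). Past 2-fold on the control arrays lay 2 genes in favour of LK2 and 2 in favour of H520, against 3.85% and 3.24% of all genes and 7.08% together. On the siRNA arrays there were again 2 and 2, against 4.51%, 3.71% and 8.22%. H2AX, which is phosphorylated at DNA breaks, read 0.24 and 0.45 on the H520 control and siRNA arrays and 0.04 and -0.45 on those of LK2. Its line difference was therefore -0.20 on control arrays and -0.90 on siRNA arrays. The next genes higher in LK2 on the control arrays were H4C14 at 0.33, H2AZ2 at 0.31 and H2BC5 at 0.30. Across the 70 genes, Pearson's r between the control and siRNA array pairs was 0.83 and Spearman's rho 0.55, where r was 0.88 across all genes. The array pairs have no array in common, but genes are not independent replicates.

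**Figure D4:**
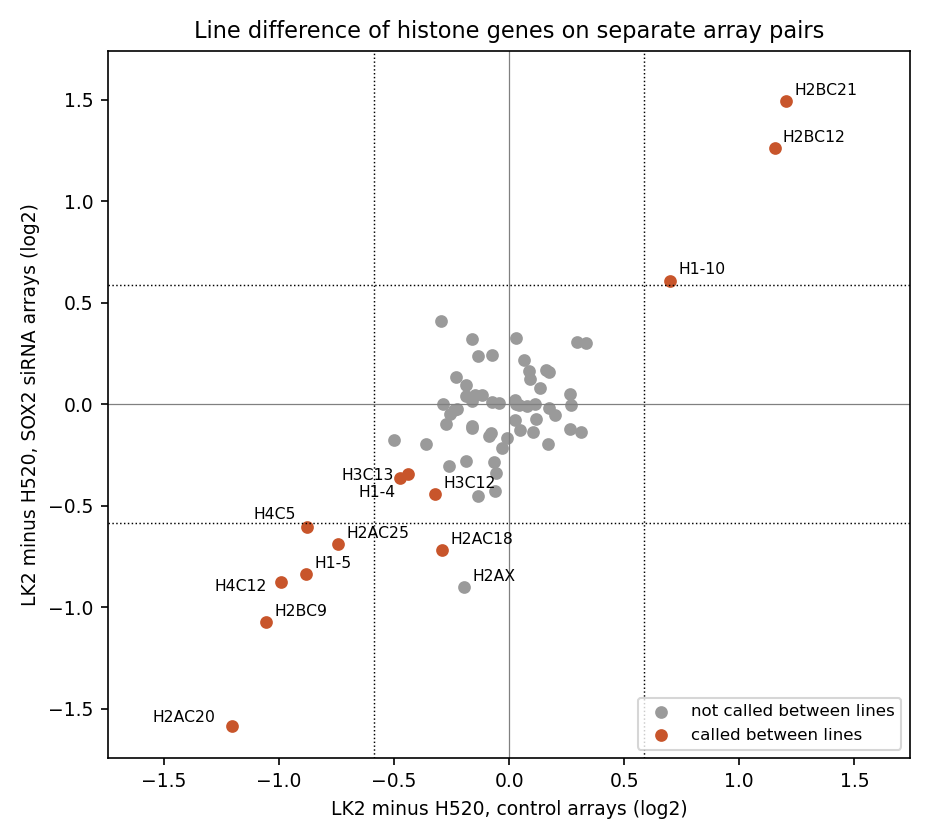
LK2 minus H520 (log2) on the control arrays (horizontal) and on the SOX2 siRNA arrays (vertical) for the 70 histone genes, with dotted lines at 1.5-fold and called genes in orange. H2BC21, H2BC12 and H1-10 lie at the upper right, 6 genes lie beyond 1.5-fold on both axes at the lower left, and most genes cluster around 0.

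With SOX2 siRNA, 0 of the 70 histone genes passed the limma test over both lines, where 0.0053% of all genes were called. The lowest adjusted p of a histone gene was 0.298. SOX2 itself, at -0.66 in H520 and -2.11 in LK2, did not pass either (limma adjusted p = 0.33). A gene can thus change and not be called by this test. At an unadjusted p under 0.05 there were 6 histone genes, or 8.57%, against 8.4% of all genes. The median siRNA change was -0.02 in H520 and 0.00 in LK2, and over all genes it was 0.00 in both lines. In H520 33 genes lay above 0 and 37 below, and in LK2 35 lay above and 35 below. There were 18 genes higher and 20 lower in both lines, and 32 had opposite signs.

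H1-2 and H2BC9 had the lowest unadjusted p-values, and both read lower with siRNA in each line. H1-2, a linker histone gene, read 0.33 on the H520 control array and -0.11 with siRNA, and 0.41 and -0.12 on those of LK2. Both siRNA arrays lay below both control arrays, by -0.43 in H520 and -0.52 in LK2. The coefficient over both lines was -0.48 ± 0.10 (SE), which did not pass over all genes (limma adjusted p = 0.298). Its line difference was 0.04 ± 0.10, so H1-2 differed with siRNA more than between lines. H2BC9 was at -0.46 in H520 and -0.47 in LK2, with the same adjusted p of 0.298 by limma.

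The other 4 members with an unadjusted p under 0.05 were smaller. H2BC21 (0.37 ± 0.12 SE) and H2AC20 (-0.40 ± 0.13) are described above. H2AZ2, which encodes an H2A.Z protein found at promoters, was at -0.11 in H520 and -0.56 in LK2 (-0.34 ± 0.13, limma adjusted p = 0.573). H2BC12 was at -0.30 and -0.19 (-0.25 ± 0.10, limma adjusted p = 0.593).

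Within H520, 0 histone genes reached 1.5-fold in either direction, where 0.806% of all genes were higher and 1.07% lower. Values ran from -0.46 in H2BC9 to 0.33 in H2BC17. H3C11 was at 0.30, H2AC21 at 0.25, H3C2 at 0.23 and H2AX at 0.22, while H2BC14 was at -0.40, H2AC13 at -0.39 and H2AC6 at -0.31. The SD over histone genes was 0.17, and the SD between 2 probes of the same gene on the array was 0.18 over 3934 genes. The spread over histone genes was thus about that between probes of 1 gene. For the siRNA change in LK2 both SDs were 0.21. For the line difference they were also close, at 0.40 and 0.42 on the control arrays and 0.44 and 0.43 on the SOX2 siRNA arrays. The SD over all genes was larger than that over histone genes each time. It was 0.21 for the siRNA change in H520 and 0.26 in LK2. For the line difference it was 0.59 on the control arrays and 0.62 on the SOX2 siRNA arrays.

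Within LK2, 1 histone gene, H2AC20, reached 1.5-fold lower and 0 were higher, against 1.3% and 1.9% of all genes, or 3.2% together. At 2-fold there were 0, against 0.499% higher, 0.276% lower and 0.774% together over all genes. At -0.59 it lay at the threshold. H2AX was at -0.49 and H2AC7 at -0.32, and at the upper end H2BC21 was followed by H4C6 at 0.36, H2BC14 at 0.30, H3C4 at 0.23, H2BC6 at 0.22 and H2AC8 at 0.21. H2BC14, at -0.40 in H520, and H2AX, at 0.22, had opposite signs in the lines. Whether the lines differ in these responses was not tested, since that difference is the only residual of the fit.

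**Figure D5:**
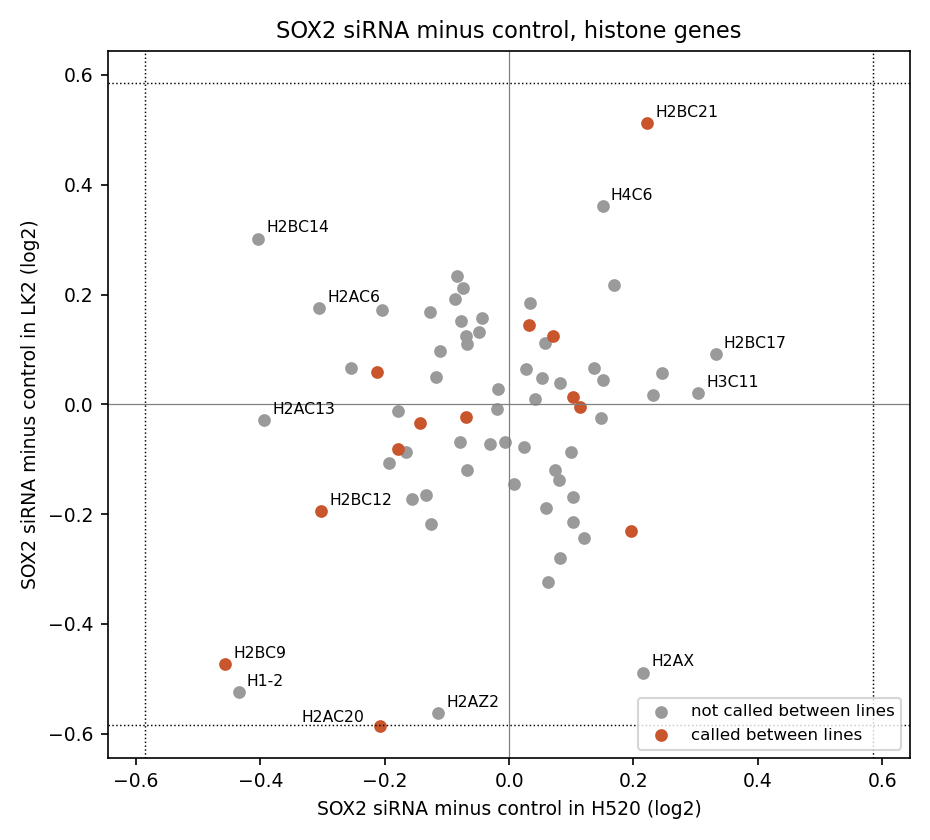
SOX2 siRNA minus control (log2) in H520 (horizontal) and LK2 (vertical) for the 70 histone genes, with dotted lines at 1.5-fold and genes called between the lines in orange. Nearly all points lie inside the dotted lines, and H1-2 and H2BC9 lie together at the lower left.

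The siRNA changes of the lines, which share no array, had a Pearson's r of 0.17 across the 70 genes, and Spearman's rho was 0.06, where r was 0.23 across all genes. By family, the median siRNA coefficient ran from -0.06 in H2A to 0.03 in H3. H1 genes other than the variant and germline members were below 0 in LK2 in all 5 cases, and 1 of the 5 was above 0 in H520. In LK2 only H1-2, at -0.52, was far from 0, and the rest lay between -0.09 and -0.01. The LK2 median was 0.00 over all genes, and 35 of the 70 histone genes were below 0.

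Genes of DNA replication, during which most histone genes are mainly transcribed, and genes of mitosis gave other values. Of 20 S phase genes, 20 were below 0 in LK2, with a median of -0.39, against 0.00 for the histone genes. In H520 their median was 0.05. Of 20 G2/M genes the medians were -0.14 and -0.38. No member of either list was called with siRNA. Named by the size of their siRNA change were CDC45 (-0.50 in H520 and -0.97 in LK2), RRM2 (-0.14 and -1.24), DTL (-0.14 and -1.17) and GINS2 (-0.30 and -0.99) among S phase genes, and BUB1B (0.15 and -0.74), CCNA2 (-0.28 and -0.52), HMMR (-0.55 and -0.24) and TTK (-0.28 and -0.45) among G2/M genes. Between the lines 10 S phase and 16 G2/M genes were called higher in H520, and 3 and 1 higher in LK2. In all 65% of the S phase and 85% of the G2/M genes were called, where 27.4% of all genes were. Their part in the histone differences was not tested.

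The machinery that makes histone mRNA was measured through 26 genes of transcription and 3′ processing, of which 5 were called higher in LK2, 3 higher in H520 and 0 with siRNA. The share called between lines, 30.8%, was near the 27.4% of all genes. CSTF2, a cleavage factor subunit, was lower in LK2 at -0.72 ± 0.11 (SE, limma adjusted p = 0.00406), and CTIF, a cap-binding complex partner, higher at 0.94 ± 0.11 (limma adjusted p = 0.00187). LSM10 of the U7 particle, at -0.45, and CPSF3, the nuclease that cuts histone pre-mRNA, at 0.28, were not called. With siRNA, E2F2 was at 0.01 in H520 and -1.08 in LK2, UPF1, a helicase of histone mRNA decay, at -0.40 and -0.52, CPSF3 at 0.23 and -0.49, and the scaffold gene SYMPK at 0.47 and -0.15. None of these 4 genes passed the siRNA test.

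Of 29 histone chaperones and import factors, 13 were called between the lines, or 44.8% against 27.4% of all genes. Of these, 10 were higher in H520 and 3 in LK2. RBBP7, a histone-binding partner of the acetyltransferase HAT1, was at -1.23 ± 0.12 (SE, limma adjusted p = 0.000809) and ASF1B, a chaperone of H3 and H4, at -1.07 ± 0.16 (limma adjusted p = 0.00434). VPS72, which helps deposit H2A.Z, was higher in LK2 at 1.35 ± 0.11 (limma adjusted p = 0.000398), as was the chaperone gene NASP at 1.03 ± 0.14 (limma adjusted p = 0.00262). With siRNA 0 of the 29 were called, and by the mean absolute change over both lines the largest were in RBBP7 (-0.29 and -0.61), HAT1 (-0.21 and -0.64), CABIN1 (0.48 and 0.16) and ASF1B (0.07 and -0.56).

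Histone variants outside the naming rule were represented by 10 genes, of which 3 were called higher in LK2, 3 higher in H520 and 0 with siRNA. The share called between lines was 60%, against 27.4% of all genes. H3-3B, which encodes the replacement histone H3.3, was at 0.94 ± 0.10 (SE, limma adjusted p = 0.00122), MACROH2A2 at 0.69 ± 0.10 (limma adjusted p = 0.00395) and MACROH2A1 at 0.51 ± 0.10 (limma adjusted p = 0.0124), all higher in LK2. H2AB1, a short H2A variant, was at -2.63 ± 0.10 (limma adjusted p = 3.88e-05). It read -0.04 and 0.04 in H520 and -2.64 and -2.61 in LK2. With siRNA the largest changes by the same measure were in MACROH2A1 (-0.25 in H520 and -0.31 in LK2), H2AJ (0.23 and -0.11), H3-3B (0.12 and 0.20) and H2AP (-0.15 and 0.10).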

How the data were processed

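The authors deposited log2 values for 48801 probes on 4 arrays, with the tool, background correction and centring not given in the sources used here. Column medians were 0.000149 (H520 control), 0.00118 (H520 SOX2 siRNA), 0.000493 (LK2 control) and -0.000497 (LK2 SOX2 siRNA). The log base was settled from 4 scanner intensity columns whose names match no label. They were given to no sample and used only in pairs: the best 2 matches gave slopes of 0.896 and 1.06, where log2 predicts 1 and natural logs 0.693.

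The platform's annotation gave 28096 probes with 1 gene symbol, 13 with several and 20692 with none here, and 1 probe naming 2 histone genes was left out. All 78 member probes matched RefSeq (GRCh38.p14) by Entrez identifier, and promoter sequences are RefSeq's. A gene's value is the mean of its probes.

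One limma 3.58.1 fit in R 4.3.3 over all 18852 genes, with line and siRNA as terms, gave both contrasts, two-sided, with Benjamini-Hochberg adjustment and 5.19 prior degrees of freedom. The line block comes from the labels. Fits were tested on simulated data. Within a line genes were counted at 1.5-fold, without a test. The number of arrays limits the precision. Members, lists (transcription and 3′ processing, chaperones, other variants, S phase, G2/M, squamous and other cell markers) and rules were chosen with earlier results of these data known. Named were the 4 single-gene variants, called genes (up to 10 a direction between lines), the 6 members with the largest difference in each direction of each single contrast, members at 1.5-fold in both lines or with probes over 1 apart (log2), and 4 genes per list by siRNA change, plus 4 by line difference on controls for the 3 lists of histone supply. The motifs, the divergent pairs, the transcript span and the other members named were chosen after the data were seen.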

Additional observations from a re-analysis of the deposited data

How the results depend on the processing

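With 1 array per group no replicate could be left out. The count of histone genes called with siRNA stayed 0 in each direction with probes tested singly, with 1 probe per gene, with a variance trend, with arrays centred on their medians and without a block for cell line. Between the lines, calls higher in LK2 numbered 5 with probes tested singly against 3 by gene, the additional probe calls being a probe of H2BC5 and the other probe of H2BC12. With 1 probe per gene, H2BC5 (0.52) and H2AX (-0.55) were called as well. H2AX has 1 probe, so its coefficient was unchanged, and its limma adjusted p went from 0.0633 to 0.0364. It was also called with probes tested singly (limma adjusted p = 0.0298). For a gene with more than 1 probe, the probe kept was the one with the largest variance over the arrays. This favours a probe that differs between lines. The other probes of H2BC5 were at 0.26 and 0.12. With no replicate block, that is with siRNA left out of the line fit, 3 genes were called higher in LK2 and 9 lower, H3C13 being the call lost (limma adjusted p = 0.0503). At 2-fold, 0 genes in place of 1 were lower with siRNA in LK2, and 2 in place of 6 were lower in LK2 on the control arrays, the threshold being stricter. The sign of the siRNA and line coefficients of the 31 named histone genes was kept in all 124 alternatives run on them, which were 1 probe per gene and centred arrays. Most of these signs could hardly change. Of the named genes only H2AC18, H2BC12, H2BC5 and H3C13 have more than 1 probe, so the others kept their coefficients with 1 probe per gene. Centring moved all genes alike, by -0.0088 and -0.0076 for the line difference on control and siRNA arrays. For the siRNA change the shift was -0.0016 in H520 and -0.00031 in LK2. The kept signs are thus little evidence of robustness. Signal over background is unknown, so a small difference may be a weakly detected probe.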

Other observations

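The length of a histone gene's annotated span was set beside its line difference after the values were seen, so it has no test. In the RefSeq table (GRCh38.p14) 12 of the 70 genes span over 1000 bases, with H2BC12 at 8566 bases, H2BC21 at 2224 and H1-10 at 1516 among them. All 3 genes called higher in LK2 belong to these 12, and 0 of the 12 were called higher in H520, where 14% and 13.4% of all genes were called. H2AX, with a span of 1592 bases, runs the other way, with a line coefficient of -0.55 that was called with 1 probe per gene (limma adjusted p = 0.0364). Of the 58 shorter genes, which span 386 to 797 bases, 0 were called higher in LK2 and 10 higher in H520. The median line difference on the control arrays was 0.10 for the longer and -0.10 for the shorter genes. H2BC5, at 13229 bases, was at 0.30 on the control arrays (limma adjusted p = 0.0732 for the line coefficient). Other long genes lay near 0, such as H2BC18 (29682 bases) at 0.03 and H3C4 (2510 bases) at -0.07. H2AZ1, at 2188 bases, was at -0.26. Annotated span does not tell which transcript a probe reads.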
